A study of Mus musculus with 15 samples.

Results

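The 10 genes described here encode the core of the pyruvate dehydrogenase complex (Pdha1, Pdhb, Dlat and Dld), 3 of the kinases that switch it off (Pdk1, Pdk2 and Pdk4), a phosphatase that switches it on again (Pdp1), and both subunits of the mitochondrial pyruvate carrier (Mpc1 and Mpc2). They were chosen by gene symbol, and each symbol had a single gene ID among the 36727 genes of the table. All 10 passed the filter on low values, as did 16690 genes in all. The study states that RNA came from whole hearts and describes the 15 male mice as WT and SIRT5OE littermates, not as a single litter. RNA was compared in 4 groups: SIRT5OE TAC (n = 4), SIRT5OE sham (n = 3), WT TAC (n = 4) and WT sham (n = 4). SIRT5OE mice carry a SIRT5 transgene in the Col1a1 locus, made from a single embryonic stem cell clone, with its stop cassette removed by Sox2-Cre. The CAGGS promoter drives it in the whole body, not in cardiomyocytes alone. TAC, transverse aortic constriction, narrows the aorta and loads the left ventricle with pressure, and sham mice had the operation without the band. The labels state neither the age of the animals nor the time after surgery. According to the study, the mice were adults and the hearts were taken some weeks after the operation.

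Pyruvate made from glucose or lactate enters mitochondria through the carrier, a heterodimer of MPC1 and MPC2, and the pyruvate dehydrogenase complex then converts it to acetyl-CoA for the TCA cycle. The complex is inactivated when kinases phosphorylate the E1 alpha subunit and is reactivated by phosphatases, so the balance of kinase and phosphatase sets how much glucose carbon is oxidized. The adult heart relies mainly on fatty acids, and Pdk4 is known as the kinase gene that follows fatty acid supply, through PPAR nuclear receptors.

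In WT hearts, 9 of the 10 genes were lower after TAC than after sham, where 16.5% of all tested genes were lower, and Pdk1 was the exception. In SIRT5OE hearts, Pdk4 was the only gene of the 10 that passed the test after TAC (1.86% of all tested genes were lower). Between the TAC groups, 5 of the 10 genes were higher in SIRT5OE than in WT hearts, with means between 1.25 (Mpc1) and 1.68 (Mpc2) times the WT TAC mean. In that comparison 3.8% of all tested genes were higher, and the 5 calls were lost under several other settings. Between the sham groups, none of the 10 passed, beside 0.018% of all tested genes.

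**Figure D1:**
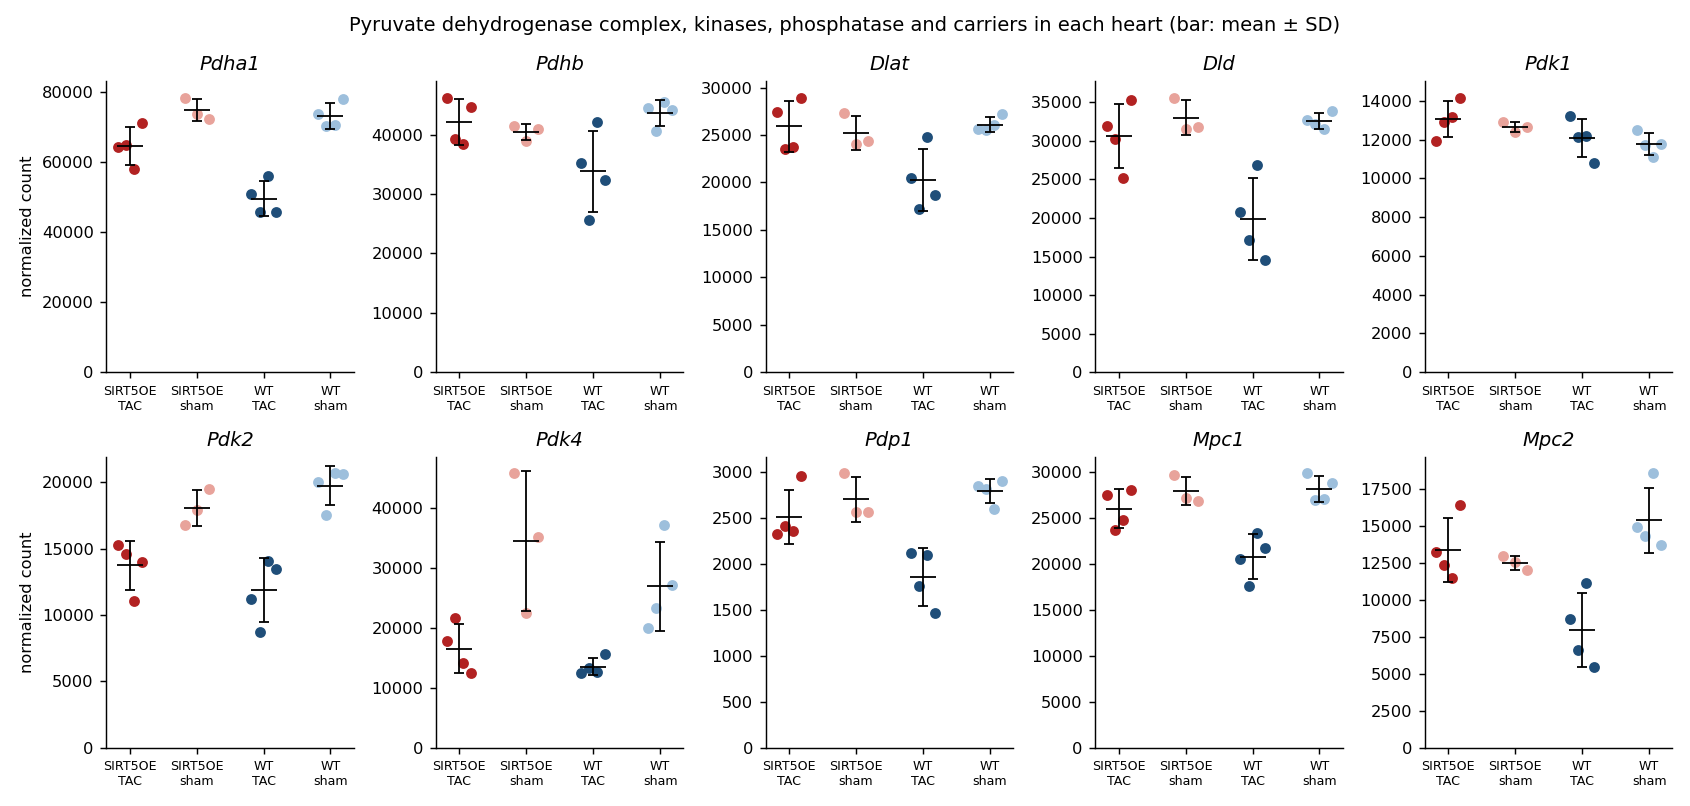
Normalized count (linear axis from 0) of each of the 10 genes in each heart (points) of the 4 groups, with the mean and SD of the group (black bars). WT TAC hearts have the lowest mean for 9 of the 10 genes, with Mpc2 between 5478 and 11125 against 13718 to 18577 in WT sham hearts, while Pdk1 lies between 10784 and 14177 in all hearts.

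Deposited values per heart summed to between 56233957 and 74282028 normalized counts. Sirt5 was at 30432 to 43932 normalized counts in SIRT5OE TAC and 38589 to 42058 in SIRT5OE sham hearts, against 1574 to 2113 in WT TAC and 2028 to 2365 in WT sham hearts, so every heart matched its labelled genotype. SIRT5OE TAC replicate 3 stood apart from its group in a principal component analysis of the 500 genes of highest variance, with a score on component 1 of 33.9 against -6.90 to 2.54 for the other SIRT5OE TAC hearts, and WT TAC hearts were at 19.4 to 49.9. The summed level of 9 cardiomyocyte marker genes ranged from 2757399 to 3931814 in SIRT5OE TAC and 4056009 to 4253110 in SIRT5OE sham hearts, and from 1740915 to 3359532 in WT TAC and 4034781 to 4587575 in WT sham hearts. In each genotype the TAC hearts lay below the sham hearts for this sum. Of these 9 markers, 7 were lower in WT TAC than in WT sham hearts, beside 16.5% of all tested genes. In SIRT5OE TAC against SIRT5OE sham hearts 0 passed, beside 4.98% of all tested genes. There 4 had an unadjusted p under 0.05, as had 3642 of all 16690 tested genes. In SIRT5OE over WT TAC hearts 0 of the markers passed, and 6 had an unadjusted p under 0.05, as had 4823 of all tested genes. The median log2 fold change of the 9 markers was 0.48 in that comparison and -0.75 in WT TAC over WT sham hearts. The 10 genes described had medians of 0.35 and -0.58. Genes encoded by mitochondrial DNA took a median share of 31.2% of the normalized counts in SIRT5OE TAC hearts against 34.5% in SIRT5OE sham hearts, and 24.4% in WT TAC hearts against 35.6% in WT sham hearts. The sum of 8 fibroblast markers was 98954 to 289189 in SIRT5OE TAC and 51562 to 57818 in SIRT5OE sham hearts, against 158180 to 357700 in WT TAC and 49889 to 60067 in WT sham hearts. TAC hearts lay above sham hearts in each genotype for this sum, and 6 of the 8 markers were higher after TAC in SIRT5OE and 7 in WT hearts. For this and the next list of markers, the matching counts over all 16690 tested genes were 520 higher in SIRT5OE and 2881 in WT hearts. Leukocyte and macrophage markers were higher for 1 of 7 genes in SIRT5OE TAC over SIRT5OE sham hearts (sums of 7495 to 11125 against 6197 to 7155) and for 7 of 7 in WT TAC over WT sham hearts (11416 to 13638 against 6309 to 7675). These values moved with the differences described below and their part in them was not tested. In whole tissue, fewer cells of a type and less RNA per cell cannot be told apart. Fat tissue markers were close to absent, since the summed level of 6 adipocyte genes was 14.5 to 37.2 in SIRT5OE TAC, 23.5 to 61.2 in SIRT5OE sham, 23.0 to 65.4 in WT TAC and 13.2 to 73.8 in WT sham hearts. Lep, encoding leptin, was at 0 in 13 of the 15 hearts and Ucp1, the marker of brown fat, in 12, while Cidea, also listed for brown fat, was at 1003 to 2052 over all hearts.

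Because longer transcripts collect more reads, levels of different genes were compared per kilobase of the principal transcript of GENCODE vM21. On that scale Mpc1 (29429 ± 1469 normalized counts per kilobase in WT sham hearts, SD, n = 4), Pdhb (28891 ± 1422) and Pdha1 (25724 ± 1270) had the highest levels, and Mpc1 and Pdhb did not differ beyond their spread. Mpc2 was at 15016 ± 2130 and Dld at 12811 ± 392 per kilobase, while Dlat was at 6470 ± 190. Among the kinases, Pdk2 was at 8780 ± 654 and Pdk4 at 7717 ± 2145 per kilobase, which did not differ beyond their spread, and Pdk1 was lower at 2271 ± 111. Pdp1 had the lowest level of the 10, at 665 ± 31.9 per kilobase.

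The E1 component decarboxylates pyruvate and its alpha subunit, encoded by the X-linked Pdha1 (chrX:160122209-160138413, GRCm38, minus strand), carries the serines that the kinases phosphorylate. Pdha1 was at 64496, 65052, 58115 and 71322 normalized counts in SIRT5OE TAC hearts against 78534, 73923 and 72452 in SIRT5OE sham hearts, and at 50889, 45658, 56055 and 45727 in WT TAC hearts against 73721, 70461, 70660 and 78207 in WT sham hearts. All TAC hearts except SIRT5OE TAC replicate 4 were below all sham hearts, and WT TAC hearts were below every other heart. In WT hearts the log2 fold change of TAC over sham was -0.57 ± 0.096 (SE, limma adjusted p = 0.000414), and 16.5% of all tested genes were called lower in that comparison. In SIRT5OE hearts it was -0.21 ± 0.10 (limma adjusted p = 0.241), which did not pass although the groups did not overlap, as for 11.8% of all tested genes with TAC below sham. SIRT5OE TAC hearts were higher than WT TAC hearts by 0.39 ± 0.096 on the log2 scale (limma adjusted p = 0.0345), where 3.8% of all tested genes were called higher.

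Pdhb (chr14:8165996-8173025, minus strand) encodes the E1 beta subunit. Its normalized counts were 46310, 39368, 38410 and 44691 in SIRT5OE TAC hearts against 41440, 39023 and 41064 in SIRT5OE sham hearts, and 35177, 25578, 42203 and 32369 in WT TAC hearts against 44487, 40623, 45595 and 44144 in WT sham hearts. Pdhb was the only gene of the 9 called lower in WT TAC hearts whose groups overlapped, because WT TAC replicate 3 lay above the lowest WT sham heart. The difference was -0.39 ± 0.12 (log2, SE, limma adjusted p = 0.0222), and it no longer passed without WT TAC replicate 2 (adjusted p = 0.0658), WT sham replicate 1 (0.0506) or WT sham replicate 3 (0.0548), with quantile normalization (0.0640) or when only the WT groups were fitted (0.0643). In SIRT5OE hearts TAC over sham was 0.05 ± 0.13 (adjusted p = 0.851), and SIRT5OE TAC over WT TAC was 0.34 ± 0.12 (adjusted p = 0.0895).

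Dlat (chr9:50634633-50659780, minus strand) encodes the E2 acetyltransferase, whose lipoyl arms pass the acetyl group to coenzyme A. Its values were 27429, 23532, 23754 and 28962 normalized counts in SIRT5OE TAC hearts against 27299, 24010 and 24421 in SIRT5OE sham hearts, and 20431, 17237, 24746 and 18634 in WT TAC hearts against 25681, 25511, 26026 and 27214 in WT sham hearts. WT TAC hearts lay below all WT sham hearts, while the SIRT5OE groups overlapped throughout. Dlat was lower in WT TAC than in WT sham hearts by a log2 fold change of -0.38 ± 0.11 (limma adjusted p = 0.0128). The difference between SIRT5OE TAC and WT TAC hearts, 0.36 ± 0.11, was just outside the threshold (limma adjusted p = 0.0511).

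Dld (chr12:31331277-31351453, minus strand) encodes the E3 dihydrolipoamide dehydrogenase, which the complex shares with the 2-oxoglutarate and branched-chain 2-oxoacid dehydrogenases. Dld was at 31931, 30243, 25164 and 35263 normalized counts in SIRT5OE TAC hearts against 35645, 31603 and 31795 in SIRT5OE sham hearts, and at 20841, 17142, 26939 and 14535 in WT TAC hearts against 32714, 32168, 31569 and 33912 in WT sham hearts. Every WT TAC heart was below every WT sham heart, and the lowest SIRT5OE TAC heart, replicate 3, lay below the highest WT TAC heart. Of the 4 core subunits Dld had the largest difference between WT TAC and WT sham hearts, with a log2 fold change of -0.75 ± 0.15 (limma adjusted p = 0.00135) and a WT TAC mean of 0.61 times the WT sham mean. SIRT5OE TAC hearts were higher than WT TAC hearts by 0.65 ± 0.15 (limma adjusted p = 0.0326). The log2 ratio of Dld to Dlat within a heart was 0.0831 to 0.362 in SIRT5OE TAC and 0.381 to 0.396 in SIRT5OE sham hearts, and -0.358 to 0.122 in WT TAC and 0.279 to 0.349 in WT sham hearts. In each genotype the TAC hearts lay below the sham hearts without overlap.

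The kinases differed among themselves, and their promoters are printed because these genes share a function and had unlike patterns. Each sequence is the 300 bases around the RefSeq start, mostly upstream of it, 5′ to 3′ on the gene's strand (RefSeq, GRCm38.p6), with matches to the motifs given below in capitals: Pdk1 at chr2:71872974-71873273 on the plus strand, Pdk2 at chr11:95041322-95041621 and Pdk4 at chr6:5496229-5496528, both on the minus strand.
Pdk1: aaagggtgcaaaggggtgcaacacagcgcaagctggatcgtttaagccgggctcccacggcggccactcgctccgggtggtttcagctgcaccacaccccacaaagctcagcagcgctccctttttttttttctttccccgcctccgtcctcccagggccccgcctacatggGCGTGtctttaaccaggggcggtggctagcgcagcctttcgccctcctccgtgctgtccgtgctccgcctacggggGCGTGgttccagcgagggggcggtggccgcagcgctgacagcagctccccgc
Pdk2: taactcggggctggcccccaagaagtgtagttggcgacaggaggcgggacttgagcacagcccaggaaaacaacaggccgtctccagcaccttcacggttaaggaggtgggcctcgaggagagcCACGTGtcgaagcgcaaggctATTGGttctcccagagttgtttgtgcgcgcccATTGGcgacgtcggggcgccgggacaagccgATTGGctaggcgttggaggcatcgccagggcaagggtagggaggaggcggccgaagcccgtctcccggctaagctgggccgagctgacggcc
Pdk4: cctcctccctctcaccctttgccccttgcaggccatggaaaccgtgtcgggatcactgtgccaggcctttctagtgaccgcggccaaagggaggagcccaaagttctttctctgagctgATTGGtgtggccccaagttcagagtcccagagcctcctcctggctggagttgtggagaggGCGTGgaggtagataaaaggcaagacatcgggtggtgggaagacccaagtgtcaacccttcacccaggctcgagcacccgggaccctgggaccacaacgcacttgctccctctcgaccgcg

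The 6 motifs were chosen after these sequences had been seen, and both strands were searched in the 9 of the 10 genes with an entry. The Pdk1 window held the HIF core GCGTG 2 times, the Pdk4 window held it 1 time with 1 CCAAT box (ATTGG on the strand printed), and the Pdk2 window held 3 CCAAT boxes and 1 CACGTG, which matches ACGTG on each strand. GCGTG was most frequent in the Pdha1 window, not printed here, which held it 4 times. Over the 9 windows, CCAAT was found in 6 and in 37.4% of 32851 promoters, GCGTG in 6 and in 32.4%, ACGTG in 2 and in 19.6%, and the NRF1 motif (GCGC, any base, then TGCGC) in 1, that of Dld, and in 4.6%. AGGTCA, the nuclear receptor half-site (16.3% of promoters), and TGTTTAC, a FOXO motif (3.65%), were found in none of the 9. These are matches of letters and not sites of binding.

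Pdk4 (chr6:5483351-5496309, minus strand) was at 17836, 21572, 14088 and 12395 normalized counts in SIRT5OE TAC hearts against 45750, 22523 and 35040 in SIRT5OE sham hearts, and at 12455, 13347, 12668 and 15647 in WT TAC hearts against 19920, 23267, 37173 and 27187 in WT sham hearts. TAC hearts lay below sham hearts without overlap in each genotype, and relative to its mean Pdk4 spread more widely among sham hearts than any other of the 10 genes. The log2 fold change of TAC over sham was -1.04 ± 0.24 in SIRT5OE hearts (SE, limma adjusted p = 0.0231), where 1.86% of all tested genes were called lower, and -0.96 ± 0.22 in WT hearts (adjusted p = 0.00354). Pdk4 was the only one of the 10 to pass an absolute log2 fold change of 1 together with the adjusted p, and it did so in SIRT5OE hearts alone, where 1.98% of all tested genes passed both. The test of the difference between the genotypes gave -0.08 ± 0.32 (adjusted p = 0.932, 95% interval -0.77 to 0.61). In SIRT5OE hearts the call was lost without SIRT5OE sham replicate 1 (log2 fold change -0.80, adjusted p = 0.119), SIRT5OE sham replicate 3 (adjusted p = 0.11) or SIRT5OE TAC replicate 3 (adjusted p = 0.0679), with array weights (-0.74, adjusted p = 0.0551) and without the mean-variance trend (adjusted p = 0.0539).

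Pdk2 (chr11:95026258-95041354, minus strand), a kinase widely expressed in heart and other tissues, was at 15294, 14600, 11081 and 14002 normalized counts in SIRT5OE TAC hearts against 16747, 17944 and 19462 in SIRT5OE sham hearts, and at 11180, 8751, 14073 and 13479 in WT TAC hearts against 20047, 17559, 20679 and 20598 in WT sham hearts. All TAC hearts were below all sham hearts, and the TAC groups overlapped each other. The difference in WT hearts was -0.75 ± 0.14 (log2, SE, limma adjusted p = 0.000675). That in SIRT5OE hearts was -0.40 ± 0.15 and did not pass (adjusted p = 0.122), except with array weights (adjusted p = 0.0266). The test of the difference between genotypes gave 0.35 ± 0.20 (adjusted p = 0.44).

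Pdk1 (chr2:71873224-71903858, plus strand), known as a gene induced by hypoxia through HIF, stayed within a narrow range. It was at 11948, 12926, 13180 and 14177 normalized counts in SIRT5OE TAC hearts against 12928, 12410 and 12644 in SIRT5OE sham hearts, and at 13199, 12129, 12215 and 10784 in WT TAC hearts against 12494, 11747, 11091 and 11766 in WT sham hearts. The ranges of all neighbouring groups overlapped. The log2 fold change of TAC over sham was 0.04 (95% interval -0.14 to 0.22) in SIRT5OE hearts and 0.03 (-0.13 to 0.20) in WT hearts, and that of SIRT5OE over WT was 0.11 (-0.05 to 0.28) after TAC. Its sign in WT hearts turned with quantile normalization (-0.02) and without WT TAC replicate 1 (-0.01).

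Ratios of the kinase transcripts were taken within each heart. The log2 ratio of Pdk1 to Pdk2 was -0.36, -0.18, 0.25 and 0.02 in SIRT5OE TAC hearts against -0.37, -0.53 and -0.62 in SIRT5OE sham hearts, and 0.24, 0.47, -0.20 and -0.32 in WT TAC hearts against -0.68, -0.58, -0.90 and -0.81 in WT sham hearts. Each TAC group lay above its sham group without overlap. The ratio of Pdk4 to Pdk1 showed the reverse order, with means of 0.30 ± 0.43 (SD) in SIRT5OE TAC, 1.38 ± 0.49 in SIRT5OE sham, 0.16 ± 0.27 in WT TAC and 1.15 ± 0.45 in WT sham hearts. For Pdk4 to Pdk2 all groups overlapped, with means of 0.24 ± 0.31, 0.88 ± 0.56, 0.21 ± 0.31 and 0.41 ± 0.35 in the same order of groups. The ratio of the phosphatase gene Pdp1 to Pdk2 overlapped between TAC and sham hearts in each genotype. It was -2.71 to -2.23 in SIRT5OE TAC and -2.92 to -2.49 in SIRT5OE sham hearts, and -3.20 to -2.32 in WT TAC and -2.99 to -2.64 in WT sham hearts. These ratios are descriptions and were not tested.

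**Figure D2:**
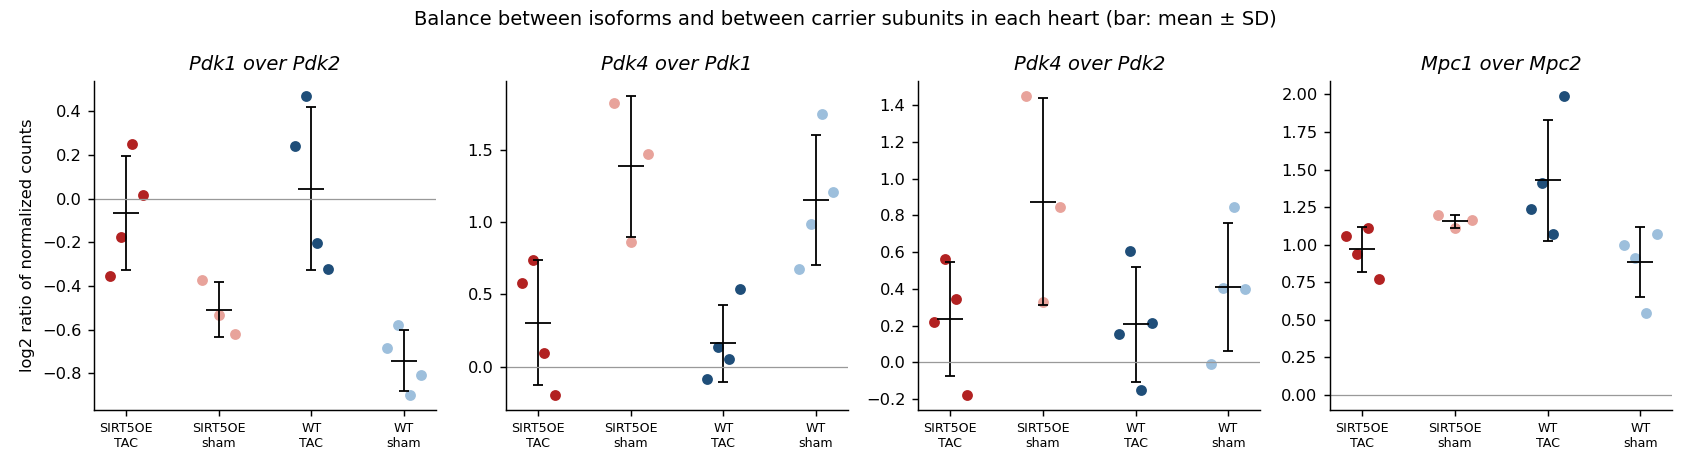
Log2 ratio of normalized counts within each heart (points) for the pairs Pdk1 over Pdk2, Pdk4 over Pdk1, Pdk4 over Pdk2 and Mpc1 over Mpc2 in the 4 groups, with mean and SD (black bars). Pdk1 over Pdk2 is higher in TAC than in sham hearts of each genotype without overlap, and Mpc1 over Mpc2 reaches 1.99 in a WT TAC heart.

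Pdp1 (chr4:11958184-11966452, minus strand) encodes the catalytic subunit of the calcium-stimulated phosphatase that opposes the kinases. Its normalized counts were 2329, 2415, 2358 and 2956 in SIRT5OE TAC hearts against 2989, 2564 and 2563 in SIRT5OE sham hearts, and 2124, 1756, 2094 and 1463 in WT TAC hearts against 2855, 2813, 2601 and 2907 in WT sham hearts. All WT TAC hearts were below all hearts of the other groups. Pdp1 was lower in WT TAC than in WT sham hearts (-0.60 ± 0.12, log2, SE, limma adjusted p = 0.00115) and higher after TAC in SIRT5OE than in WT hearts (0.44 ± 0.12, adjusted p = 0.0383). That genotype difference was 0.36 (adjusted p = 0.143) without SIRT5OE TAC replicate 4, which was the highest heart of its group, and it was between 0.33 (without WT TAC replicate 4, adjusted p = 0.119) and 0.51 when each other TAC heart was left out.

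The carrier works only as a heterodimer, and both of its subunit genes were lower in WT TAC than in WT sham hearts. Mpc1 (chr17:8282904-8297661, plus strand) was at 27510, 23666, 24759 and 28086 normalized counts in SIRT5OE TAC hearts against 29670, 27204 and 26884 in SIRT5OE sham hearts, and at 20523, 17563, 23370 and 21759 in WT TAC hearts against 29881, 26963, 27106 and 28824 in WT sham hearts. WT TAC hearts were again below every other heart. The log2 fold change of TAC over sham was -0.10 ± 0.10 in SIRT5OE hearts (SE, adjusted p = 0.598) and -0.45 ± 0.095 in WT hearts (adjusted p = 0.00213), and SIRT5OE TAC hearts were higher than WT TAC hearts by 0.33 ± 0.095 (limma adjusted p = 0.049). That last call was lost in 17 of 26 alternatives, among them leaving out any single sham heart (limma adjusted p = 0.0605 to 0.0670).

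Mpc2 (chr1:165460637-165481214, plus strand) was at 13249, 12385, 11469 and 16434 normalized counts in SIRT5OE TAC hearts against 12953, 12593 and 12020 in SIRT5OE sham hearts, and at 8704, 6606, 11125 and 5478 in WT TAC hearts against 14958, 14314, 18577 and 13718 in WT sham hearts. Every WT TAC heart was below every heart of the other 3 groups, and every SIRT5OE sham heart was below every WT sham heart, as for 3.67% of all tested genes. Mpc2 had the largest log2 fold change of the 10 genes between WT TAC and WT sham hearts, at -0.99 ± 0.18 (SE, limma adjusted p = 0.000585) and a WT TAC mean of 0.52 times the WT sham mean. By the ratio of means Pdk4 was lower still, at 0.50 times. In SIRT5OE hearts TAC over sham was 0.08 ± 0.19 (adjusted p = 0.84). It was also the gene with the largest difference between SIRT5OE TAC and WT TAC hearts, 0.79 ± 0.18 (limma adjusted p = 0.0325). SIRT5OE sham over WT sham was -0.29 ± 0.19, which did not pass (adjusted p = 1). The log2 ratio of Mpc1 to Mpc2 was 1.05, 0.93, 1.11 and 0.77 in SIRT5OE TAC hearts against 1.20, 1.11 and 1.16 in SIRT5OE sham hearts, and 1.24, 1.41, 1.07 and 1.99 in WT TAC hearts against 1.00, 0.91, 0.55 and 1.07 in WT sham hearts. SIRT5OE TAC hearts lay below SIRT5OE sham hearts, with the groups meeting at 1.11, and WT TAC hearts lay above WT sham hearts except where the groups met at 1.07. This ratio was not tested.

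**Figure D3:**
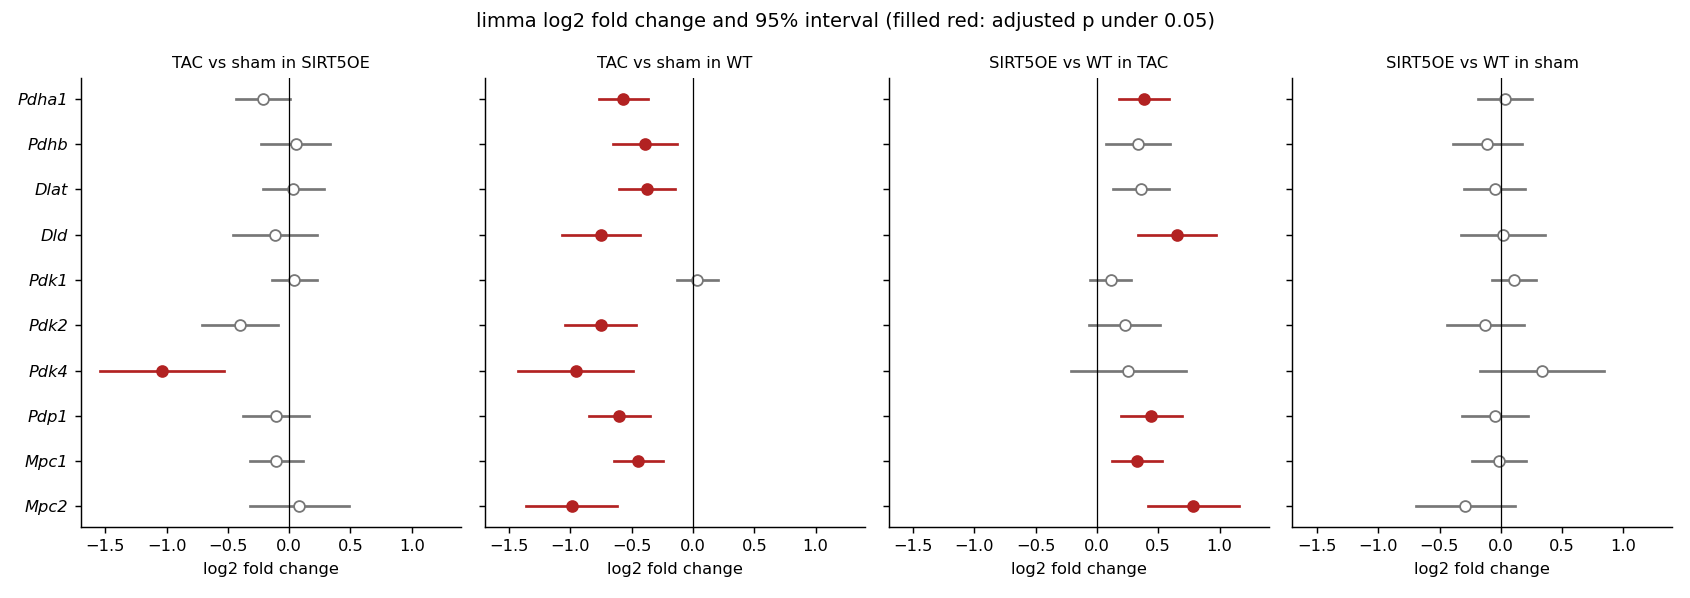
Log2 fold change of each of the 10 genes (points) with its 95% interval (lines) from limma in 4 comparisons: TAC over sham in SIRT5OE and in WT hearts, and SIRT5OE over WT in TAC and in sham hearts. Filled red points passed adjusted p under 0.05: 1, 9, 5 and 0 genes.

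Over the 10 genes, the median log2 fold change of TAC over sham was -0.11 in SIRT5OE hearts and -0.58 in WT hearts, beside -0.01 over all tested genes in each comparison. In SIRT5OE hearts 1 of the 10 was called, and 4.98% of all tested genes were. In WT hearts 9 of the 10 were called, all lower, and 33.7% of all tested genes were called in either direction. None of the 9 also passed an absolute log2 fold change of 1, beside 11.5% of all tested genes. The WT groups did not overlap for 8 of the 10 genes (15.5% of all tested genes had WT TAC below WT sham hearts without overlap). Without SIRT5OE TAC replicate 3, 9 genes were called in WT hearts and 0 in SIRT5OE hearts.

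For SIRT5OE over WT in TAC hearts, the 10 genes had a median log2 fold change of 0.35, beside 0.00 over all tested genes, and all 10 values were above 0. Dld, Mpc1, Mpc2, Pdha1 and Pdp1 were called higher, with adjusted p between 0.0325 and 0.049, and 7.24% of all tested genes were called in either direction. SIRT5OE TAC hearts lay above WT TAC hearts without overlap for Mpc1, Mpc2, Pdha1 and Pdp1 (4 of 10, beside 4.06% of all tested genes). None of the 10 passed when only the TAC groups were fitted, without the filter on low values, or without the mean-variance trend, and the calls over all genes were then 3, 231 and 42 in place of 1208. The log2 fold changes of the 5 genes were the same in these fits, and their adjusted p lay between 0.0502 (Mpc2, no filter) and 0.202 (Mpc1, TAC groups only). None passed either without SIRT5OE TAC replicate 1, 2 or 4 or WT TAC replicate 2 or 4, each left out alone. In these 5 fits the log2 fold change was 0.52 to 0.66 for Dld, 0.25 to 0.37 for Mpc1, 0.62 to 0.82 for Mpc2, 0.34 to 0.39 for Pdha1 and 0.33 to 0.48 for Pdp1, so every value stayed above 0. Leaving out SIRT5OE TAC replicate 3 gave 6 calls, and leaving out WT TAC replicate 3 gave 7. Leaving out a sham heart, which only enters the shared spread here, gave 2 calls for SIRT5OE sham replicate 2 and 3 calls for SIRT5OE sham replicate 3 and WT sham replicates 1 and 2. Mpc1 lost its call whichever sham heart was left out. Of 26 alternatives, the call was lost in 9 for Dld and for Mpc2, 10 for Pdha1, 15 for Pdp1 and 17 for Mpc1.

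For SIRT5OE over WT in sham hearts, limma called 0 of the 10 genes, and 0 had an unadjusted p under 0.05, beside 2.56% of all tested genes. Over all tested genes 3 were called (0.018%). The log2 fold changes lay between -0.29 (Mpc2, 95% interval -0.69 to 0.11) and 0.34 (Pdk4, -0.17 to 0.84). The comparisons of SIRT5OE TAC with WT TAC and of WT TAC with WT sham share the WT TAC hearts, so their values for the same gene are not independent.

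The test of whether TAC over sham differed between the genotypes called 0 of the 10 genes and 0 of all 16690 (0%) by limma. An unadjusted p under 0.05 was found for 7 of the 10 genes, all with a positive difference, and for 2206 genes in all (13.2%), of which 1161 (6.96% of those tested) were positive. The difference was largest for Mpc2, at 1.07 ± 0.26 (log2, SE, adjusted p = 0.349, 95% interval 0.53 to 1.62), and it passed only without WT TAC replicate 3 (1.25, adjusted p = 0.0413). That of Dld was 0.64 ± 0.22 and that of Pdp1 was 0.49 ± 0.17, each with an adjusted p of 0.349.

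The 10 genes moved together across hearts with 2 exceptions. Over the 28 pairs that leave out Pdk1 and Pdk4, Pearson's r of the log2 values over the 15 hearts ran between 0.65 and 0.95, with a median of 0.87, and it was highest for Pdha1 with Dld. Pdk4 had r between 0.40 and 0.74 with those 8 genes, and Pdk1 had r between -0.27 and 0.42 with the other 9. These points share 4 groups, library and depth, and they are given as a description. WT TAC replicate 3 was the highest of its group for 7 of the 10 genes and SIRT5OE TAC replicate 4 for 7, and SIRT5OE sham replicate 1 was the highest for 9.

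Outside the 10, the genes with the most similar pattern over the 15 hearts were named for each gene that was called. Their r values are the highest over all kept genes with a mean of at least 100. They include the differences between the 4 groups and are given as a description. For Pdha1 the closest genes were mt-Co1, a cytochrome oxidase subunit of the mitochondrial genome (r = 0.99), Hadha, a subunit of the mitochondrial trifunctional protein of fatty acid oxidation (r = 0.99), and Nceh1 (r = 0.99). For Dld they were Osgepl1 (r = 0.995), Ppp2r3a (r = 0.98) and Carnmt1 (r = 0.98), for Dlat Mlf1 (r = 0.98), Apoo (r = 0.97) and Grsf1 (r = 0.96), and for Pdhb Gmnn (r = 0.99), Tmem86a (r = 0.96) and Hmgn2 (r = 0.96). Mpc2 was closest to Atp5j, a subunit of ATP synthase (r = 0.97), Ndufab1, the mitochondrial acyl carrier protein (r = 0.97), and mt-Cytb (r = 0.97), and Mpc1 to Optn (r = 0.97), Atp5c1 (r = 0.96) and Uqcrc2 (r = 0.96). Among the genes closest to Pdk2 were Rtn2 and Psap (r = 0.98 each), and Pdp1 was closest to Hs3st5, Rnf128 and Zfp943 (r = 0.97 each). For Pdk4 the closest were Lipe, hormone-sensitive lipase (r = 0.93), and Arrdc2 (r = 0.92), which the table holds under 2 gene IDs of equal r.

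Of the other genes of the complex and its regulators, 2 of 4 were lower in WT TAC than in WT sham hearts, beside 16.5% of all tested genes. Pdp2, the second phosphatase gene, had a log2 fold change of -2.07 ± 0.31 (SE, limma adjusted p = 0.000163) and Pdpr, the regulatory subunit of the phosphatase, of -0.57 ± 0.20 (adjusted p = 0.0347). For Pdpr the WT groups overlapped, and the call was lost in 11 of 26 alternatives (adjusted p up to 0.114). The E3-binding protein gene Pdhx was at -0.19 (adjusted p = 0.205) and the kinase gene Pdk3 at 0.70 (adjusted p = 0.157). In TAC hearts Pdp2 was higher in SIRT5OE than in WT (1.23 ± 0.31, adjusted p = 0.0345), and the other 3 did not pass. Of all tested genes, 3.8% were called higher in that comparison.

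Lists of genes around pyruvate were described in the same way. Their counts stand beside 17.3% of all tested genes higher and 16.5% lower in WT TAC than in WT sham hearts, and beside 3.8% higher and 3.43% lower in SIRT5OE than in WT TAC hearts. The calls of SIRT5OE over WT in TAC hearts given below for single genes, and that of Pdp2, were each lost in 5 to 17 of 26 alternatives. Among genes of pyruvate supply and its other fates, 3 of 14 were higher and 8 lower in WT TAC than in WT sham hearts, with a median log2 fold change of -0.36. The alanine aminotransferase genes Gpt2 (-1.69) and Gpt (-1.57), which interconvert pyruvate and alanine, fell, as did the lactate dehydrogenase genes Ldhd (-1.17) and Ldhb (-0.99). Ldha, another lactate dehydrogenase gene, went the other way, with a WT TAC mean of 1.36 times the WT sham mean. Gpt2 (0.97, adjusted p = 0.0367) and Gpt (0.86, adjusted p = 0.0416) were higher after TAC in SIRT5OE than in WT hearts, calls that were lost in 13 and 17 of 26 alternatives (adjusted p up to 0.184 and 0.188). Of 17 genes for the lipoate and thiamine cofactors of the complex, 4 were lower in WT TAC hearts (median -0.25), namely Ndufab1 (-0.78), Oxsm (-0.55), Isca1 (-0.45) and Bola3 (-0.36), and 1, Ndufab1 (0.76, adjusted p = 0.0289), was higher after TAC in SIRT5OE than in WT hearts. These counts are near the shares over all tested genes, and the call of Bola3 was lost in 17 of 26 alternatives (adjusted p up to 0.153).

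The other 2-oxoacid dehydrogenases, which share the design of the complex, were lower in WT TAC than in WT sham hearts for 6 of 8 genes (median -0.77). Among them were the branched-chain subunits Dbt (-1.12), Bckdhb (-1.07) and Bckdha (-0.95) and the phosphatase gene Ppm1k (-1.77, limma adjusted p = 6.84e-05). Of the TCA cycle genes, downstream of the complex, 13 of 14 were lower (median -0.68), among them Sdha (-0.98), Sucla2 (-0.86), Suclg1 (-0.80) and Idh3a (-0.67). In SIRT5OE TAC over WT TAC hearts, 3 of 8 and 4 of 14 genes of these lists were higher, with medians of 0.45 and 0.33. In SIRT5OE TAC over SIRT5OE sham hearts, 1 of 8 and 1 of 14 were lower, with medians of -0.29 and -0.34, beside 1.86% of all tested genes.

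Target genes of PPAR alpha, to which Pdk4 also belongs, were lower in WT TAC than in WT sham hearts for 18 of 22 genes (median -0.79), with Ucp3 at -3.41, Acot1 at -2.86, Acadm at -1.06 and Hadha at -0.96. In SIRT5OE TAC over SIRT5OE sham hearts 7 of the 22 were lower (median -0.44), beside 1.86% of all tested genes. In SIRT5OE over WT TAC hearts 7 were higher (median 0.40), among them Ucp3 (1.87, adjusted p = 0.0339). Of 12 transcription factor and coactivator genes listed as regulators of Pdk4, 7 were lower in WT TAC hearts (median -0.54), among them Ppargc1a (-1.57), Foxo3 (-0.88), Esrrg (-0.82) and Pparg (-0.56). After TAC, 2 of the 12, Foxo3 and Esrrg, were higher in SIRT5OE than in WT hearts (list median 0.23). Each of these calls was lost in 9 of 26 alternatives. HIF target genes, a class to which Pdk1 is known to belong in hypoxia, had 6 of 12 genes higher in WT TAC than in WT sham hearts and 0 lower (median 0.49), with P4ha1 (1.21), Slc2a1, the glucose transporter GLUT1 (1.12), Ndufa4l2 (0.60) and Pgk1 (0.44) among them. In SIRT5OE over WT TAC hearts 3 of these 12, P4ha1 (-0.68), Ndufa4l2 (-0.54) and Slc2a1 (-1.14), were lower. Of 8 glucocorticoid-responsive genes, Ddit4 was higher (1.54) and Klf9 lower (-0.96) in WT TAC hearts, while Zbtb16 (-1.08, adjusted p = 0.076) and Dusp1 (0.33, adjusted p = 0.313) did not pass. After TAC, 1 of the 8, Klf9, was higher in SIRT5OE than in WT hearts, at 0.65 to 0.84 over the alternatives. The call was lost in 5 of 26. Single genes of these lists are given for WT TAC over WT sham and SIRT5OE over WT in TAC hearts only.

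**Figure D4:**
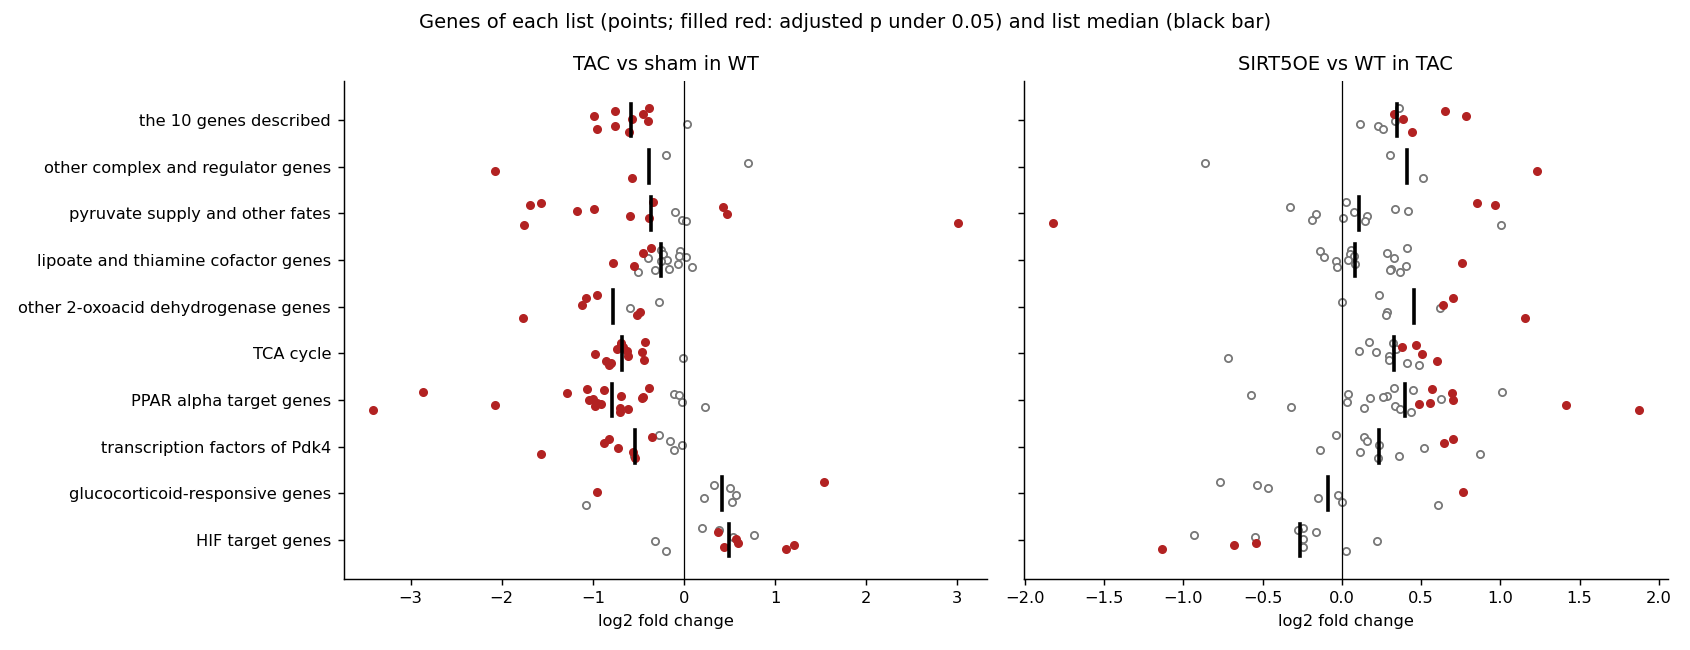
Log2 fold change (limma) of each gene (points) of the 10 genes described and of the 9 surrounding lists, for TAC over sham in WT hearts and SIRT5OE over WT in TAC hearts, with the median of the list (black bar). Filled red points passed adjusted p under 0.05. The medians of the 10 genes lie at -0.58 and 0.35, and those of the HIF target genes at 0.49 and -0.26.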

How the data were processed

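Ribodepleted total RNA of mouse hearts, whole hearts according to the study, was sequenced in 15 libraries, 1 per heart. Per the labels and the study's methods, reads were pseudoaligned with kallisto (0.43.1 in the submitters' processing notes, build mm10), summed to genes with tximport and normalized with DESeq2. The deposited signal values are the authors' normalized counts, which are not whole reads, so no count model was fitted and per-library read depth is not known from them. The table has 0 numeric columns without a labelled heart. The filter required a normalized count of 10 or more in 3 or more hearts, and log2(normalized count + 1) was fitted with limma 3.58.1 (R 4.3.3; group means of all 15 hearts, mean-variance trend). P values were Benjamini-Hochberg adjusted over all kept genes and called under 0.05. Fold changes are on this scale. Replicates are separate hearts. From each surrounding list, up to 4 genes of smallest adjusted p in TAC over sham in WT or SIRT5OE over WT in TAC were named, and for each called gene the 3 genes with the highest r among those with a mean of at least 100; 1 such gene is not reported here. Ldha was named in addition, by its ratio of means only. The 10 genes and the lists were chosen with earlier results of these data known. The code was tested on simulated data. Alternatives covered normalization, pseudocount, filter, samples fitted, replicate block, array weights, variance trend, fold threshold and each heart left out.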

Additional observations from a re-analysis of the deposited data

Results flagged for a closer look

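In 30 groups of 4 hearts (10 genes in the 3 groups with 4 hearts), 1 heart was far from the rest of its group, where chance would mark about 1 in 20. It was SIRT5OE TAC replicate 4 for Pdp1, at 2956 normalized counts, with the next highest heart at 2415.

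For Mpc2, the SIRT5OE hearts lay on opposite sides of the WT hearts after TAC and after sham. All 4 SIRT5OE TAC hearts were above all 4 WT TAC hearts, and all 3 SIRT5OE sham hearts were below all 4 WT sham hearts, a sham difference that did not pass (log2 fold change -0.29, limma adjusted p = 1). The difference between these differences was 1.07 on the log2 scale, which did not pass when adjusted over all genes (limma adjusted p = 0.349).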

How the results depend on the processing

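The count of 9 genes lower in WT TAC hearts was 8 to 9 when each heart was left out, and 0 with a log2 fold change over 1 required. The 1 gene in SIRT5OE TAC over SIRT5OE sham hearts became 0 without the variance trend and with a replicate block, and was 0 to 1 leaving out each heart. The 5 genes of SIRT5OE over WT in TAC hearts became 0 without the filter, without the trend, with only the groups compared, with the replicate block or with the fold threshold, and were 0 to 7 leaving out each heart. The interaction count of 0 was 0 to 1. With the block, calls over all genes in SIRT5OE over WT in TAC hearts were 20 in place of 1208, and in SIRT5OE TAC over sham 460 in place of 831. Same-numbered hearts correlated at -0.30 to 0.08 in their deviations from group means, so the numbers were not taken as pairing. With array weights TAC over sham in SIRT5OE hearts had 2135 calls. The causes were not tested.

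Signs turned only for values near 0 that were never called. Leaving out each heart gave -0.0207 to 0.0923 for Dlat and -0.0197 to 0.15 for Mpc2 in SIRT5OE TAC over sham, -0.0395 to 0.0473 for Dld, -0.0587 to 0.0142 for Mpc1 and -0.00025 to 0.0655 for Pdha1 in SIRT5OE over WT sham, -0.00904 to 0.0881 for Pdk1 in WT TAC over sham, and -0.046 to 0.0512 for Pdk1 and -0.36 to 0.15 for Pdk4 in the interaction. Array weights gave -0.014 for Dld in sham, and -0.0486 for Pdk1 and 0.18 for Pdk4 in the interaction. Scaling to nuclear counts gave 0.0040 for Mpc1 in sham and -0.0346 for Pdk1 in the interaction, the replicate block 0.0103 for Mpc1 in sham, and quantile normalization -0.0168 for Pdk1 in WT hearts. Of 1290 values of the 10 genes under alternatives, 23 changed sign, 71 lost and 7 gained a call. None of 1872 values of named list genes changed sign, 231 lost and 23 gained a call.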
